A study of Mus musculus with 5 samples.

Results

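The genes described here are the 7 mouse genes of the myeloid cytokine receptors, Csf1r, Csf2ra, Csf2rb, Csf2rb2, Csf3r, Il6ra and Il6st. The rule lists them by name and uses no measured value, but it was written with earlier results of these data known. They were found by their Ensembl identifiers among the 55487 genes of the count table. All 7 passed the filter on low counts, which left 14423 genes for testing. The libraries are bulk RNA of sorted bone marrow common lymphoid progenitors (CLPs, gated as lineage-negative, CD127-positive and Flt3-positive), taken 16 weeks after tamoxifen. The SF1 group (n = 3) came from mice with SclCre and the kinase mutant JAK2-V617F, and the wild-type group (WT, n = 2) from mice labelled with the same tamoxifen treatment. Scl directs the Cre to blood stem and progenitor cells. The sources used here do not say whether WT mice carried the Cre or the allele, how old the mice were, or whether each library came from 1 animal or a pool. P-values therefore measure the spread between these libraries, which may be technical. Libraries are named by group and replicate number, as in SF1 library 1.

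Myeloid cytokines reach progenitors through receptors of a few kinds. The macrophage colony-stimulating factor receptor (Csf1r) is a tyrosine kinase in itself, while the others have no kinase domain. Granulocyte colony-stimulating factor uses a single receptor chain (Csf3r). Granulocyte-macrophage colony-stimulating factor and interleukin 6 each bind a private chain (Csf2ra, Il6ra) that joins a shared signalling chain (Csf2rb, or Il6st, also called gp130). Receptors without a kinase domain rely on Janus kinases bound to their tails, and JAK2 is the one that the common beta chain uses. CLPs are the marrow stage from which lymphocytes arise, and these receptors are best known from myeloid cells.

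Reads counted to genes numbered 9350767 to 11290082 per SF1 library, and 20424296 (first) and 8894288 (second) for WT. Levels are CPM, reads of a gene scaled to the size of the library with the TMM method, and 1 count stood for between 0.0503 and 0.114 CPM. The genes of the positive gate were abundant in every library, with Flt3 between 1511 and 1700 CPM and Il7r, which encodes CD127, between 331 and 465 CPM. The T-cell gene Cd3e had at most 1 count in any library. Jak2 was at 68.1, 67.8 and 63.3 CPM in SF1 libraries 1, 2 and 3 and at 58.4 and 35.4 CPM in WT libraries 1 and 2 (adjusted p = 0.104). The genotype cannot be checked from these values, since a count holds no base change.

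Of the 7 receptor genes, 3 rose in SF1 (Csf1r, Csf2rb2 and Il6ra), none fell and 4 did not pass at an adjusted p of 0.05. Only Csf1r was called higher without SF1 library 2 or SF1 library 3, and 2 of the 7 were without SF1 library 1, WT library 1 or WT library 2. Over all genes tested, 6.77% were called higher and 9.74% lower. The median log2 fold change of the 7 genes was 0.27, against 0.02 over all genes tested. These are counts over a short list that was chosen with earlier results known. In 3 of the 7 genes every SF1 library was above both WT libraries, as in 24.8% of all genes tested. In none was every SF1 library below both, which held for 24.2% of all genes, and groups that did not overlap in either direction made up 49%. In bulk RNA a change in the share of cells that carry a transcript and a change in RNA per cell cannot be told apart.

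**Figure D1:**
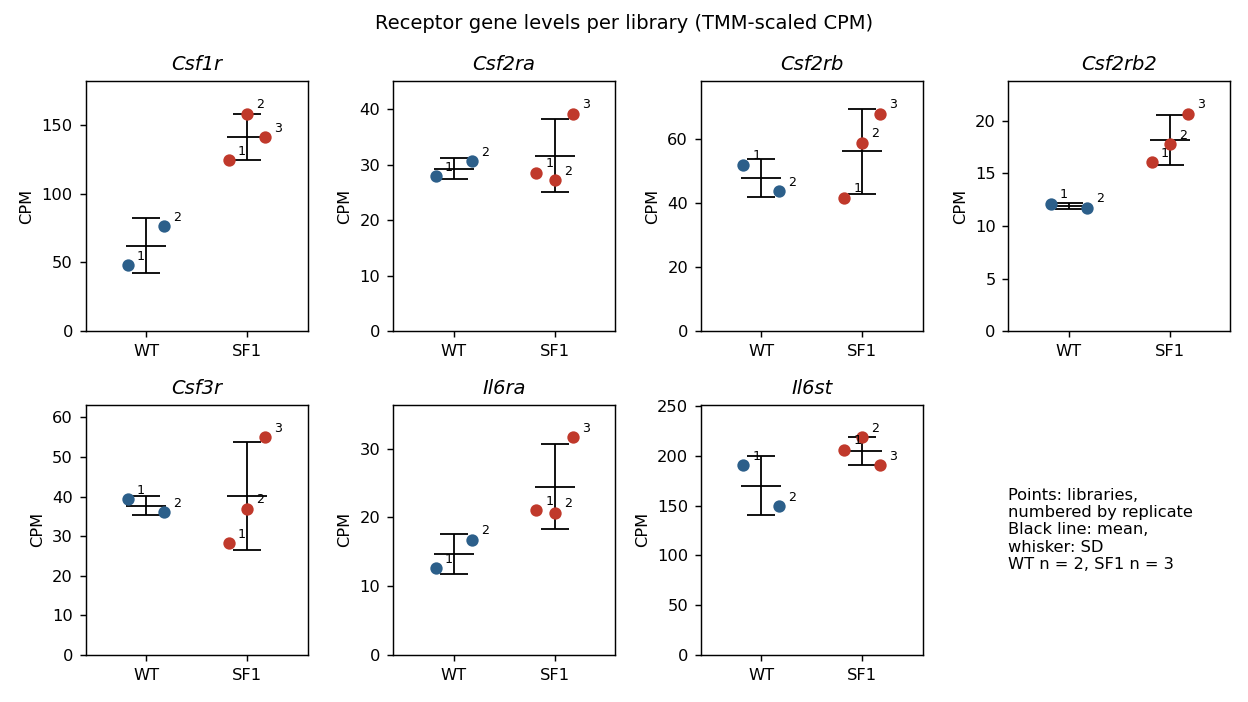
Level of each receptor gene in each library, in TMM-scaled CPM on linear axes from 0. Points are libraries numbered by replicate, the horizontal line is the group mean and the whiskers are the SD (WT n = 2, SF1 n = 3). Csf1r, Csf2rb2 and Il6ra have all SF1 points above both WT points, and Csf3r has SF1 points on both sides of the WT points.

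Csf1r, the receptor kinase for the macrophage growth factor, had the largest difference of the 7. It is ENSMUSG00000024621, on chromosome 18. It was at 124.5, 158 and 141 CPM in SF1 libraries 1, 2 and 3 and at 48.2 and 76.5 CPM in WT libraries 1 and 2. All SF1 libraries were above both WT libraries, and the WT libraries differed from each other more than the SF1 libraries did in relative terms (coefficient of variation 32.1% in WT and 12% in SF1). The rise was 1.20 on the log2 scale (SE 0.18, 95% interval 0.78 to 1.62, adjusted p = 0.00372). It passed under all 15 alternative settings, with log2 fold changes from 0.88 to 1.55.

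Some of the Csf1r exon sequence is shared with a gene on the other strand. In the GENCODE annotation 873 bases, 15.1% of its exon length, overlap exons of Hmgxb3, and the library kit does not mark strand. Hmgxb3 moved the other way, at 58.8, 58.6 and 64.5 CPM in SF1 and 89.4 and 79.8 CPM in WT (log2 fold change -0.48, adjusted p = 0.0131). Pdgfrb, a related receptor kinase gene that ends 15536 bases before Csf1r on the same strand, was at 96.9, 118 and 120 CPM in SF1 and 99.4 and 81.8 CPM in WT. Pdgfrb did not pass (log2 fold change 0.30, adjusted p = 0.135).

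Csf2rb and Csf2rb2 encode the beta chains. The Csf2rb chain is shared by the receptors for granulocyte-macrophage colony-stimulating factor, interleukin 3 and interleukin 5, and the Csf2rb2 chain, found in mice, serves interleukin 3. Csf2rb (ENSMUSG00000071713, chr15:78325752-78353847, GRCm38, plus strand) and Csf2rb2 (ENSMUSG00000071714, chr15:78282507-78305721, minus strand) lie 20030 bases apart and point away from each other. Their coding sequences, 2688 and 2634 bases long, were identical at 95.2% of 2628 aligned bases, with a longest identical stretch of 242 bases. Of 1689 gap-free windows of 60 coding bases, 26.1% held no difference at all. A read from such a window cannot be assigned to one gene by its sequence. The stretches below show how the copies are told apart. Capitals mark the bases that differ between the copies, and each line reads 5′ to 3′ on the coding strand. The first pair has 2 differences, the median over windows (chr15:78341642-78341701 in Csf2rb and chr15:78291609-78291668 in Csf2rb2).
Csf2rb: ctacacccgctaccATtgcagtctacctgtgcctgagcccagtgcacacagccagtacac
Csf2rb2: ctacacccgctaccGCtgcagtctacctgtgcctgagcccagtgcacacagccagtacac
The second pair is the window with the most differences, 13 (chr15:78338893-78338952 in Csf2rb and chr15:78294379-78294438 in Csf2rb2).
Csf2rb: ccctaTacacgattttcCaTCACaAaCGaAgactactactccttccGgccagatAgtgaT
Csf2rb2: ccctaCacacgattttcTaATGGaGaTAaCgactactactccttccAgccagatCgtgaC

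Whole annotated transcripts of the pair overlapped less than their coding parts. Of the distinct stretches of 50 bases in Csf2rb transcripts 12.3% also occurred in Csf2rb2 transcripts, and 18.4% the other way. The sources used here do not say how the authors counted reads that fit both genes, so the values of the single genes are uncertain and their sum is given as well.

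The common beta chain gene Csf2rb did not pass. SF1 libraries 1, 2 and 3 had 41.7, 58.9 and 68.0 CPM, and WT libraries 1 and 2 had 52.1 and 43.7 CPM. SF1 library 1 was below both WT libraries and the other two SF1 libraries were above both. The log2 fold change was 0.23 (SE 0.19, 95% interval -0.20 to 0.65, adjusted p = 0.45). Without SF1 library 1 it was 0.40 (adjusted p = 0.0875), without SF1 library 3 it was 0.07, and without WT libraries 1 and 2 in turn it was 0.36 and 0.11. After GC and length correction it was 0.46 (adjusted p = 0.129).

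The interleukin 3 chain gene Csf2rb2 rose. It was at 16.1, 17.8 and 20.7 CPM in SF1 and at 12.1 and 11.7 CPM in WT, so the groups did not overlap. The log2 fold change was 0.61 (SE 0.17, 95% interval 0.22 to 0.99, adjusted p = 0.0408). This call rested on every library but SF1 library 1: the adjusted p was 0.0928 without SF1 library 2, 0.119 without SF1 library 3, 0.162 without WT library 1 and 0.127 without WT library 2. It was also lost by DESeq2 (adjusted p = 0.0586).

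Counted as 1 gene, the pair was at 57.8, 76.7 and 88.7 CPM in SF1 and 64.2 and 55.5 CPM in WT. The sum did not pass (log2 fold change 0.31, SE 0.17, 95% interval -0.07 to 0.69, adjusted p = 0.239). Csf2rb held most of the pair's counts in every library. Its share was 72.2% of 543 counts in SF1 library 1 (95% exact Clopper-Pearson interval 68.2 to 75.9%), 76.8% of 876 in SF1 library 2 (73.9 to 79.6%) and 76.7% of 965 in SF1 library 3 (73.9 to 79.3%). In WT libraries 1 and 2 it was 81.1% of 1276 counts (78.9 to 83.2%) and 78.9% of 487 (75 to 82.4%). All SF1 shares were below both WT shares, and the SF1 mean minus the WT mean was -4.75 percentage points. An exact two-sided permutation test over libraries gave p = 0.1, the smallest value that 3 against 2 libraries allow. These intervals cover counting error only.

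Csf2ra, the chain that binds granulocyte-macrophage colony-stimulating factor, did not pass. Csf2ra (ENSMUSG00000059326, chr19:61223957-61228429, minus strand) was at 28.5, 27.1 and 39.1 CPM in SF1 and at 27.9 and 30.6 CPM in WT. SF1 library 3 alone was above the WT libraries in a clear way, and SF1 library 2 was below both. The log2 fold change was 0.12 (SE 0.17, 95% interval -0.27 to 0.50, adjusted p = 0.689), and it was -0.07 without SF1 library 3. The log2 ratio of Csf2ra to the summed beta chains, each per kilobase of exon, was 0.12, -0.33 and -0.01 in SF1 libraries 1, 2 and 3 and 0.00 and 0.33 in WT libraries 1 and 2. These ratios overlapped between the groups (exact permutation p = 0.4, two-sided).

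Csf3r, the receptor for the neutrophil growth factor, did not pass and had the widest spread among SF1 libraries of the 7 genes. Csf3r (ENSMUSG00000028859, chr4:126024550-126044440, plus strand) was at 28.3, 37.0 and 55.0 CPM in SF1 libraries 1, 2 and 3 and at 39.4 and 36.0 CPM in WT. SF1 library 1 lay below both WT libraries, SF1 library 2 between them and SF1 library 3 above both. The highest SF1 library was 1.94 times the lowest. The log2 fold change was 0.09 (SE 0.23, 95% interval -0.44 to 0.61, adjusted p = 0.836), and it was -0.21 without SF1 library 3.

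Il6ra, the chain that binds interleukin 6, rose by a call at the edge of the threshold. Il6ra (ENSMUSG00000027947, chr3:89864059-89913196, minus strand) was at 21.1, 20.7 and 31.6 CPM in SF1 and at 12.6 and 16.7 CPM in WT. The groups did not overlap, with SF1 library 3 apart from the other SF1 libraries. The log2 fold change was 0.76 (SE 0.22, 95% interval 0.25 to 1.26, adjusted p = 0.0499). The call was lost without SF1 library 1, 2 or 3 (adjusted p = 0.0563, 0.0697 and 0.134) or WT library 1 (0.295), and with DESeq2 size factors (0.0527). DESeq2's own test passed it (adjusted p = 0.0194). The antisense gene Gm42809 covers 2.8% of the Il6ra exon length and had between 6 and 17 counts per library.

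Il6st, the gp130 chain shared by interleukin 6 and its relatives, did not pass, although its interval lay just above 0. Il6st (ENSMUSG00000021756, chr13:112464070-112510086, plus strand) was at 206, 219 and 190.7 CPM in SF1 and at 190.9 and 149 CPM in WT. SF1 library 3 and WT library 1 were nearly equal. The log2 fold change was 0.27 (SE 0.11, 95% interval 0.01 to 0.53, unadjusted p = 0.0441, adjusted p = 0.147). Without WT library 1 it was 0.46 (adjusted p = 0.0495) and without WT library 2 it was 0.10 (adjusted p = 0.626), so the value depends on which WT library is kept. It passed after a correction for GC content and length (0.35, adjusted p = 0.0436). The log2 ratio of Il6ra to Il6st per kilobase was -2.93, -3.04 and -2.23 in the SF1 libraries and -3.56 and -2.80 in the WT libraries, so the binding chain was the scarcer RNA in each library. The ratio overlapped between the groups (exact permutation p = 0.6, two-sided).

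**Figure D2:**
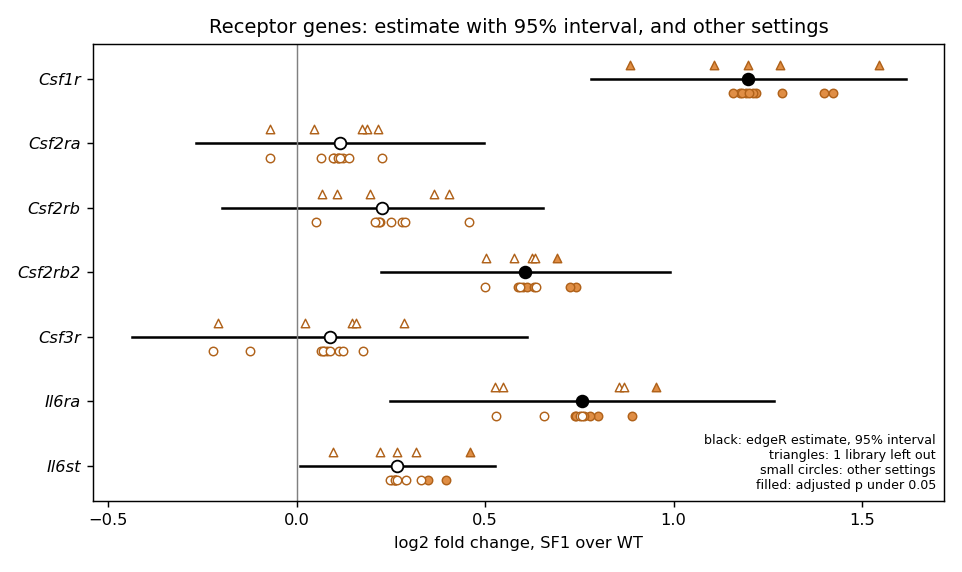
Log2 fold change (SF1 over WT) of each receptor gene, with the edgeR estimate and its 95% interval in black, fits without 1 library as triangles and the other settings as small circles. Filled symbols have an adjusted p under 0.05. Csf1r is filled throughout, Csf2rb2 and Il6ra are filled in part, and Csf2ra and Csf3r have symbols on both sides of 0.

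Per kilobase of annotated exon the order of the receptor genes differed between the groups at the top only. In WT the mean levels in CPM per kilobase were 15.3 ± 2.65 for Il6st, 10.8 ± 3.47 for Csf1r, 10.4 ± 0.668 for Csf3r and 10.2 ± 0.667 for Csf2ra (SD, n = 2). Csf2rb followed at 6.58 ± 0.811, then Csf2rb2 at 2.52 ± 0.0592 and Il6ra at 1.70 ± 0.341. Csf1r, Csf3r and Csf2ra did not differ beyond their spread in WT. In SF1 Csf1r led at 24.5 ± 2.94 (SD, n = 3), ahead of Il6st at 18.5 ± 1.26, and the ranges of the pair did not overlap. Csf3r at 11.1 ± 3.77 and Csf2ra at 11.0 ± 2.29 did not differ beyond their spread, and Csf2rb at 7.73 ± 1.84, Csf2rb2 at 3.83 ± 0.492 and Il6ra at 2.83 ± 0.719 came last in the same order as in WT. Csf1r was above Il6st in each SF1 library and below it in each WT library, although in WT library 2 the levels were 13.3 and 13.4. Exon length here is the union of all annotated transcripts, which lowers the level of a gene that uses a short isoform.

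**Figure D3:**
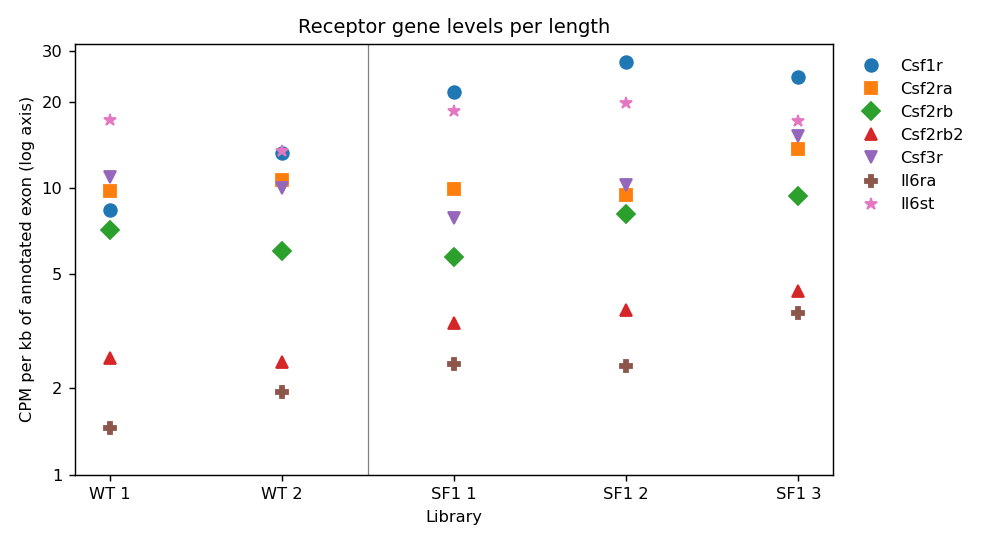
Level of the 7 receptor genes per library in CPM per kilobase of annotated exon, on a log axis, with WT libraries left of the vertical line and SF1 libraries right of it. Csf1r lies above all others in the SF1 libraries, between 21.6 and 27.4, and Il6ra is lowest in every library.

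The genes nearest to each receptor gene in pattern were found by the root mean square difference of log2 CPM, each centred on its own mean over the 5 libraries, among 9795 candidate genes. Nearest to Csf1r was Muc13, a membrane mucin gene (difference 0.03), at 80.8, 103 and 89.6 CPM in SF1 and 30.4 and 46.7 CPM in WT. Acvr1b, an activin receptor gene (0.10), and Pik3ca, a catalytic subunit gene of PI3 kinase (0.11), came next. Nearest to Csf2rb2 were Zkscan7, Tmem62 and Arl6 (differences from 0.03 to 0.04). Among the 3 nearest to Il6ra were the calcium-binding protein gene S100a11 (0.09) and Ptafr, the receptor gene for platelet-activating factor (0.10). The genes that did not pass had their own neighbours: Btnl9, Fut7 and Prkab2 for Csf2ra, Slc25a35, Acot9 and Gcat for Csf2rb, Rapgef4, Rab11fip5 and Rab36 for Csf3r, and Lck, Gpc2 and Sumf1 for Il6st. With 5 libraries and so many candidates a close match is found for most patterns, so this is a description.

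Promoter sequence was at hand for 5 of the 7 genes, from RefSeq on GRCm38.p6, as windows of 300 bases around the start site. They were searched on both strands for GAGGAA, the core that the myeloid factor PU.1 and other ETS factors bind, for the STAT pattern TTCNNNGAA and for the C/EBP pattern TTGCNNAA. GAGGAA was in 4 of the 5 (Csf2ra, Csf2rb2, Csf3r and Il6ra) and in 28.3% of all 32851 promoter windows. The STAT pattern was in 1 of 5 (Csf2rb2) against 8.3% of all, and the C/EBP pattern in none against 10.8%. A match is a run of letters and not a measured site. The lines below show 1 GAGGAA match in each of these genes, and then the STAT match, with the match in capitals (TTCCTC is GAGGAA on the other strand), 5′ to 3′ on the gene's strand. They lie at chr19:61228415-61228444, chr15:78305871-78305900, chr4:126024561-126024590, chr3:89913249-89913278 and chr15:78305717-78305746.
Csf2ra: caacctgcagatGAGGAAgaggaagcggga
Csf2rb2: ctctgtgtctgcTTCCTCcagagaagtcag
Csf3r: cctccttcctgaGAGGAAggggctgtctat
Il6ra: cttcagcaccggTTCCTCaaatgtttcact
Csf2rb2 (STAT pattern): gtgtccacaaTTCTGAGAAgcaagcaaagc
The promoters with a GAGGAA match belong both to genes that rose (Csf2rb2, Il6ra) and to genes that did not pass (Csf2ra, Csf3r). PU.1 itself is encoded by Spi1, which was at 107, 96.8 and 121 CPM in SF1 and 120 CPM in both WT libraries (log2 fold change -0.15, adjusted p = 0.347).

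Most ligand genes had few or no counts in these cells. Of 15 ligand genes 4 passed the filter on low counts, 1 of them lower in SF1 and none higher. Csf1, the ligand of Csf1r, fell by 1.18 on the log2 scale, from 7.598 and 7.17 CPM in WT to 3.40, 3.59 and 2.76 CPM in SF1 (SE 0.24, adjusted p = 0.0129; 0.0968 without WT library 1). Thus the receptor gene rose and its ligand gene fell in the same libraries. Csf2, Csf3, Il3 and Il34 had no count in any library, which allows up to 0.342 CPM in the shallowest one, and Il6 had 1 count in each WT library and none in SF1. Clcf1 (38.6, 35.7 and 35.6 CPM in SF1, 32.2 and 28.8 CPM in WT), Ebi3 (17.8, 13.7 and 20.4 against 12.0 and 12.0 CPM) and Osm (8.83, 9.46 and 6.43 against 11.4 and 10.1 CPM), which signal through gp130 complexes, did not pass (adjusted p = 0.168, 0.102 and 0.258). Lif, Ctf1, Cntf, Il27, Il11 and Il5 were below the filter, with at most 17 counts in any library.

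Among the chains that pair with Csf2rb or Il6st, 1 of the 4 tested genes rose and none fell, and 4 of the 8 were below the filter. Lifr, which joins gp130 in the receptor for leukaemia inhibitory factor, was at 34.1, 42.2 and 42 CPM in SF1 and at 14.3 and 16.97 CPM in WT. The groups were well apart, and the log2 fold change was 1.35 (SE 0.15, adjusted p = 0.000975). Lifr passed under all alternatives, from 1.22 to 1.46. Il3ra, the interleukin 3 chain that pairs with the beta chains, was at 6.59, 8.32 and 7.54 CPM in SF1 and 7.30 and 8.88 CPM in WT (adjusted p = 0.8). Il11ra1 and Il27ra did not pass either (adjusted p = 0.798 and 0.327). Osmr and Cntfr had no count in any library.

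Other cytokine receptor genes mostly did not pass. Of 18 tested, 4 rose, 1 fell and 13 did not pass, and none was called without WT library 1, with 2 higher without SF1 library 2 or SF1 library 3 and 2 lower without WT library 2. The interferon receptor gene Ifnar2 and Il10rb, a chain of the interleukin 10 receptor, rose by 0.40 and 0.42 on the log2 scale (adjusted p = 0.00911 and 0.0102; 0.0636 and 0.0711 without WT library 1). Il12rb1, an interleukin 12 receptor chain, fell by 0.96 (adjusted p = 0.0112; 0.0825 without WT library 1). Of the other class III receptor kinases, the relatives of Csf1r, 1 of 3 tested was called: Kit fell by 0.51 (adjusted p = 0.0116; 0.0932 without WT library 1). Flt3 and Pdgfrb did not pass.

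Genes that carry the signal inside the cell were grouped by role. Of 11 Janus kinase and STAT genes 3 fell and none rose, against 1 lower without SF1 library 2 or WT library 1, and without WT library 1 Jak2 was higher. Jak3 fell by 0.78 on the log2 scale (204 and 176 CPM in WT, 112, 99.05 and 120 CPM in SF1, adjusted p = 0.00203; -0.48 after GC and length correction), and Jak1, which serves gp130, fell by 0.38 (adjusted p = 0.0123; 0.0557 without SF1 library 2 and 0.0958 without WT library 1). Tyk2 fell by 0.33 (adjusted p = 0.0496), but it was at -0.04 after GC and length correction (adjusted p = 0.807) and lost its call without any 1 of SF1 libraries 1, 2 and 3 or WT library 1 (adjusted p = 0.0514, 0.113, 0.147 and 0.338). Stat3, the main STAT of gp130 and Csf3r, was at 232, 227 and 252 CPM in SF1 and 189 and 219 CPM in WT (log2 fold change 0.22, adjusted p = 0.147). Stat5a and Stat5b, used by the beta chain, were at log2 fold changes of -0.23 and -0.20 (adjusted p = 0.11 and 0.128).

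Of 13 adaptor and kinase genes near the receptors 4 rose, 4 fell and 5 did not pass, with 2 and 2 without WT library 1 and 2 lower without SF1 library 2. The signalling chain gene Tyrobp was at 84.8, 136 and 162 CPM in SF1 and 38.2 and 47.3 CPM in WT (log2 fold change 1.59, adjusted p = 0.00355), and Sos1, a Ras exchange factor gene, was at 32.9, 33.98 and 34.9 CPM in SF1 and 17.2 and 16.5 CPM in WT (adjusted p = 0.00132). Pik3cd, the leukocyte PI3 kinase gene, fell by 1.24 (562 and 446 CPM in WT, 256, 178 and 207 CPM in SF1, adjusted p = 0.00127). Of 13 feedback inhibitor genes 2 rose and 3 fell, with none higher without SF1 library 2, SF1 library 3 or WT library 2 and 1 higher without WT library 1. The phosphatase gene Inpp5d, the adaptor gene Dok2 and Sh2b3, which encodes LNK, an inhibitor of JAK2 signalling, fell by 0.63, 0.61 and 0.55 (adjusted p = 0.00665, 0.00331 and 0.00699; 0.0637 for Sh2b3 without WT library 1). After GC and length correction Inpp5d was at -0.41 and Sh2b3 at -0.32 (adjusted p = 0.0224 and 0.0319). The ubiquitin ligase gene Cbl, known to limit Csf1r signalling, rose by 0.38 (adjusted p = 0.0323; 0.0701 without SF1 library 2, 0.105 without SF1 library 3 and 0.166 without WT library 2). Its relative Cblb rose by 0.34 (adjusted p = 0.036), a call lost without any 1 library (0.0571 to 0.167). Socs3, the inhibitor of gp130 and Csf3r, did not pass, at 11.8, 20.1 and 18.6 CPM in SF1 and 9.51 and 10.5 CPM in WT (log2 fold change 0.76, adjusted p = 0.0589).

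Of 18 genes known as STAT targets 5 rose, 2 fell and 11 did not pass, with 3 higher without SF1 library 2, SF1 library 3, WT library 1 or WT library 2. Cebpb rose by 3.56 on the log2 scale, from 2.92 and 0.342 CPM in WT to 15.96, 20.2 and 32.9 CPM in SF1 (adjusted p = 0.00336). WT library 2 held 3 counts of it, and the change was 6.03 without WT library 1 and 2.97 without WT library 2. The cyclin gene Ccnd3 and Myc fell by 0.56 and 0.87 (adjusted p = 0.00262 and 0.00663). After GC and length correction Ccnd3 was at -0.26 (adjusted p = 0.0276). The others of the list that rose were Id1, Fos, Junb and Bcl3, by 3.25, 2.67, 1.03 and 1.04 (adjusted p = 0.016, 0.0124, 0.00712 and 0.0172). Id1 was near the floor, with 3 counts in WT library 1 and 1 count in WT library 2. Pim1, Cish and Socs2, which respond to STAT5, did not pass (adjusted p = 0.961, 0.195 and 0.369). Of 14 myeloid transcription factor genes tested 4 rose and 1 fell, with 2 higher without SF1 library 3 or WT library 2. Irf8, a factor of monocytes and dendritic cells, rose by 0.90 (adjusted p = 0.0014). Ets2 fell by 0.68 (adjusted p = 0.0286), a call lost without SF1 library 1 or 2 or WT library 1 or 2 (0.0572, 0.0814, 0.172 and 0.0543). Cebpa, a factor of early granulocyte progenitors, was between 3.06 and 5.35 CPM in the 5 libraries and did not pass (adjusted p = 0.461). Of the 3 tested genes for receptor shedding, the protease gene Adam10 fell by 0.31 (adjusted p = 0.0434), a call lost without SF1 library 1, 2 or 3 or WT library 1 (0.0883, 0.0585, 0.117 and 0.266). None of the 3 rose, and 2 were lower without WT library 2.

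Markers of cells that carry these receptors differed between the groups. Of 18 neutrophil marker genes 17 were higher in SF1, none lower, and 10 were higher without WT library 1. Summed over the list, they were at 2151, 2692 and 5798 CPM in SF1 libraries 1, 2 and 3 and at 939.8 and 1201 CPM in WT, where Mpo alone held 779 and 988. Without Mpo, which did not pass, the other 17 summed to 1377, 1883 and 4809 CPM in SF1 and 161 and 214 CPM in WT, and none of them was at 0 in any library. Ltf, which encodes lactoferrin, rose by 4.44 on the log2 scale (adjusted p = 0.001). Csf3r, the receptor for the neutrophil growth factor, did not pass in the same libraries. Within SF1, Csf3r (28.3, 37.0 and 55.0 CPM in libraries 1, 2 and 3) and the sum of the 17 markers had the same order of libraries. Within SF1, all 18 neutrophil markers, all 8 tested monocyte markers and 5 of the 7 receptor genes were highest in library 3, against 32.8% of all genes tested. Csf1r and Il6st were the exceptions, both highest in library 2. The part of these markers in the receptor values was not tested.

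**Figure D4:**
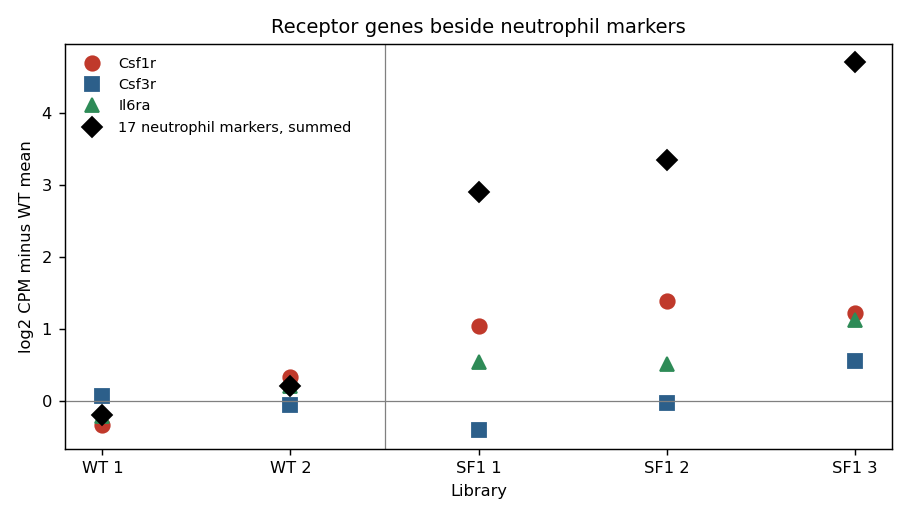
Log2 CPM minus the mean of the WT libraries, for Csf1r, Csf3r, Il6ra and the sum of 17 neutrophil markers (the fixed list without Mpo), per library. The neutrophil sum is higher in each SF1 library and highest in SF1 library 3, Csf1r is higher and nearly level across the SF1 libraries, and Csf3r lies on both sides of 0.

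Of 8 tested monocyte markers 7 were higher and none lower, with 2 higher without WT library 1, 3 without SF1 library 2, and their sum was between 354 and 901 CPM in SF1 and at 190 and 226 CPM in WT. Cd14 had no count in WT library 2, and Fcgr1 had at most 4 counts in any library. Ms4a6c and Ly6c2 rose by 1.71 and 3.10 on the log2 scale (adjusted p = 0.00105 and 0.0018). Of 9 tested markers of resident macrophages, which carry Csf1r, 6 were lower and none higher, with 1 lower without SF1 library 2 or WT library 1 and 2 without WT library 2. Their sum was between 70.6 and 77.8 CPM in SF1 and at 89.2 and 80.7 CPM in WT, and Cd5l had no count in SF1. Most of that sum was Cd163, which did not pass, at 62.8, 68.6 and 65.7 CPM in SF1 and 63.6 and 48.6 CPM in WT (log2 fold change 0.22, adjusted p = 0.274). The other 9 markers summed to 7.87, 6.13 and 12.1 CPM in SF1 and 25.6 and 32.1 CPM in WT. Csf1r was higher in the libraries in which 6 of these macrophage markers were lower and 7 of the monocyte markers were higher. The part of either cell type in the Csf1r value was not tested.

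Of 7 tested plasmacytoid dendritic cell markers 4 were higher and none lower, with 2 higher without WT library 1 and 1 lower without SF1 library 1. Their sum was between 1003 and 1185 CPM in SF1 and at 647 and 708 CPM in WT, and Klk1 had 1 count in all. Siglech, a receptor of these cells, was at 209, 312 and 297 CPM in SF1 and 67.9 and 81.9 CPM in WT (log2 fold change 1.87, adjusted p = 0.000443). Log2 fold changes were positive for 6 of the 7 tested. Irf7 went the other way, at 56.8, 24.9 and 27.4 CPM in SF1 and 75.7 and 60.2 CPM in WT. Irf7 did not pass (log2 fold change -0.92, adjusted p = 0.0691). Of 7 conventional dendritic cell markers 1 (Itgax) was higher, but none without WT library 1, where 1 was lower, and 2 were higher without WT library 2. Of 4 tested eosinophil, basophil and mast cell markers 1 (Prg2) was higher, and none without SF1 library 3. Prg2 was uneven within SF1, at 0.43, 28.6 and 5.88 CPM in SF1 libraries 1, 2 and 3 and at 0.25 and 0.11 CPM in WT. It was near the floor in SF1 library 1 (4 counts) and in WT libraries 1 and 2 (5 counts and 1 count). Of 5 tested T and natural killer cell markers 1 (Klrd1) was higher.

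Lymphoid and erythroid markers completed the background of the libraries. Of 9 B-lineage markers 7 were lower and none higher, with 4 lower without SF1 library 2, SF1 library 3 or WT library 1. Their sum was between 880 and 1283 CPM in SF1 and at 1805 and 1583 CPM in WT. Of 7 tested erythroid markers 5 were lower and none higher. Of 8 lymphoid progenitor markers 3 (Ly6d, Satb1 and Il7r) were higher and none lower. Il7r lost its call without any of the SF1 libraries or WT library 1 (adjusted p = 0.0665 to 0.211). On this list their sum was between 10180 and 10420 CPM in SF1 and at 9353 and 9204 CPM in WT. The part of these cell types in the receptor values was not tested.

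**Figure D5:**
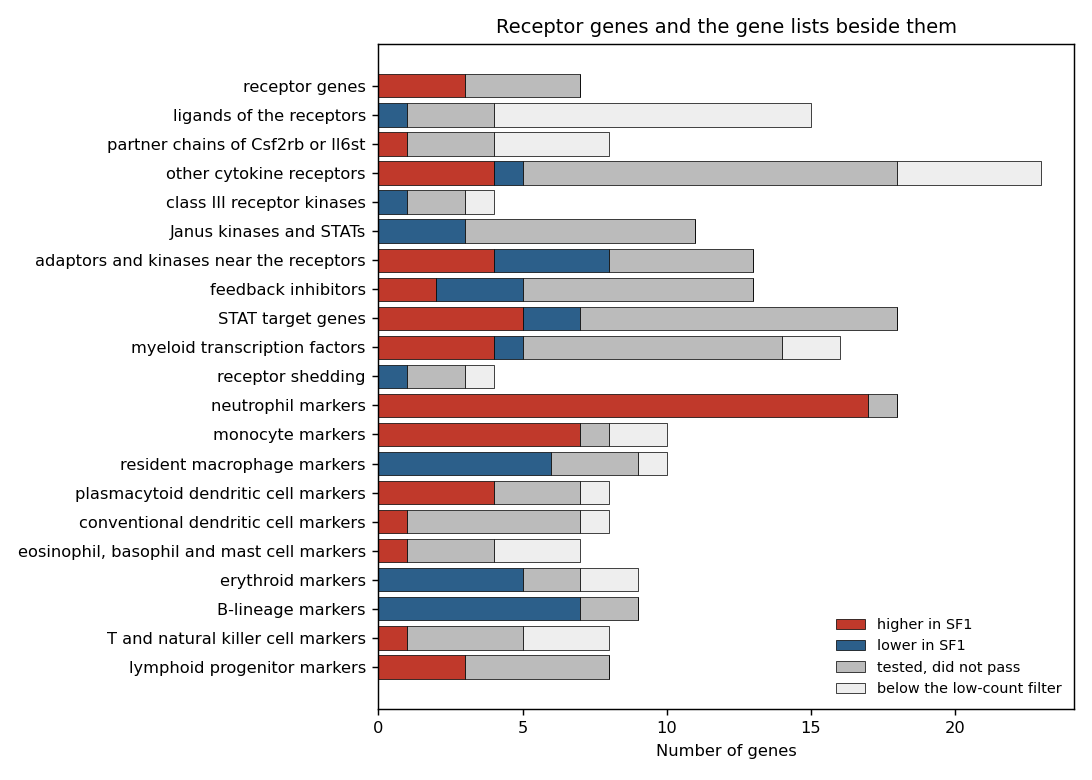
Number of genes called higher or lower in SF1, tested without passing, or below the low-count filter, for the receptor genes and each gene list (edgeR, adjusted p under 0.05). The neutrophil list has 17 of 18 genes higher, and the receptor genes 3 of 7.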

How the data were processed

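RNA of sorted mouse CLPs was sequenced in 5 bulk libraries, 3 SF1 and 2 WT. Per the labels' protocols, RNA with a RIN above 7 went through SMART-Seq (v2 or v4) amplification into Nextera XT libraries, which have no molecular identifiers and do not mark strand. The deposited values are whole-number counts that the authors left unscaled. The tools named in the submitters' processing notes are HISAT2 2.2.1, featureCounts 2.0.1 and FastQC, on GRCm38. The sources used here do not give the annotation release, the strand setting or the handling of multiply mapped reads.

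Of the 55487 identifiers, 55227 matched GENCODE M21 (same build), which gave symbols, positions and exon lengths. Counts were tested with edgeR 4.0.16 (R 4.3.3): TMM scaling, filterByExpr (minimum count 10), quasi-likelihood F test of SF1 against WT, no covariate, and Benjamini-Hochberg adjustment over all 14423 genes tested (threshold 0.05). An adjusted p with no tool named is edgeR's. Standard errors come from the F statistic, and 95% intervals from its degrees of freedom. Means are given ± SD. A count of 0 is bounded by 3 counts. On simulated counts for this comparison (14148 genes), the test found 18% of genes simulated with a log2 change of 0.5, 55.1% at 1 and 98% at 2. It made 145 calls there, 12 of them false, against 2382 calls in the data. With fewer changed genes the adjustment is stricter, so these shares may be too low for the data.

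Alternatives were DESeq2 1.42.0, limma 3.58.1 (voom with sample weights), DESeq2 size factors, other filters, each library left out, the replicate number as a block, GC and length correction, thinning to the smallest total, and Csf2rb with Csf2rb2 as 1 gene. Named were all 7 receptor genes, at most 3 genes per list by smallest p, the 3 nearest in pattern, all ligands and Jak2. Any other gene named was picked with its values known. Some genes that this rule names are not reported here. The receptor genes and gene lists were chosen with earlier results of these data known.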

Additional observations from a re-analysis of the deposited data

How the results depend on the processing

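The 2382 genes changed became 1519 under the replicate block, and between 986 and 2170 when 1 library was left out (986 for WT library 1, 1234 for SF1 library 2, 1294 for SF1 library 3). The number of receptor genes higher in SF1, 3 in the edgeR fit of all libraries, was 1 (Csf1r) with the block and 2 with DESeq2. It was 1 to 2 when 1 SF1 library was left out. After GC and length correction it was 4, with Il6st added, so the called genes were not always among the same 3. No receptor gene was lower under any setting. In the edgeR fit of all libraries the log2 fold changes of all 7 receptor genes were positive, as were 7520 of the 14423 genes tested. Same-numbered libraries deviated together only weakly (correlation of deviations 0.036 and 0.065). The deviations of 2 WT libraries mirror each other and SF1 library 3 has no partner, so this cannot show whether the numbers mark pairs. With the block Csf2ra was at -0.0701 and Csf3r at -0.22, and Csf3r at -0.12 with the block and GC and length correction. Leaving out 1 library gave Csf2ra -0.0706 to 0.22 and Csf3r -0.21 to 0.29, both lowest without SF1 library 3. None of these 5 reversed values passed. Because SF1 library 3 has no WT library of its number, the block takes the SF1 to WT difference from the other libraries. The block is therefore close to leaving SF1 library 3 out and is not separate evidence. Why SF1 library 3 differs was not tested. With the block Csf2rb2 and Il6ra were at 0.50 and 0.53 (adjusted p = 0.146 and 0.121). The share of Csf2rb and both chain ratios kept their sign under the alternatives run, with differences of -5.88 to -3.23 percentage points, 0.06 to 0.83 and -0.40 to -0.07 on the log2 scale when 1 library was left out. In the simulated counts most changes of 0.5 on the log2 scale were missed. How many are missed in these data is not known.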
